A study of Mus musculus with 20 samples.

Results

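The E2F transcription factors, their dimer partner Tfdp1 (DP1) and the pocket protein Rb1 form the switch that lets a cell enter S phase. The 10 members described here, E2f1 to E2f8, Rb1 and Tfdp1, were taken by gene symbol from a table of 43346 genes, and each symbol had 1 row. RNA was sequenced from 20 breast tumors, 1 from each of 20 female F1 mice of a BALB/c-neuT by FVB/J cross. Every mouse carried the neuT transgene, an activated rat Her2/neu oncogene under the MMTV promoter, which is active in mammary epithelium, and the tumors arose spontaneously in mice of up to 20 weeks. There was no transgene-free tissue and no treatment. The sample names hold the word Lo in 9 tumors and Hi in 11, and no label says what these words stand for. Each library came from a small piece of 1 frozen tumor, so tumor cells and the other cells of the piece were read together, and fewer cells of a type and less RNA per cell cannot be told apart.

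In a resting cell Rb1 binds the activator E2Fs and keeps their target genes silent. Cyclin D with Cdk4 or Cdk6, and then cyclin E with Cdk2, phosphorylate Rb1, which releases E2F and DP dimers to transcribe genes of DNA replication. E2f1, E2f2 and E2f3 are the activators, E2f4 and E2f5 act mainly as repressors together with pocket proteins, E2f6 represses without a pocket protein, and E2f7 and E2f8 are atypical repressors that need no DP partner and are themselves E2F targets.

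Total counts ran from 38765682 to 65465755 per tumor, so that even the least abundant member, E2f7, had 141 to 448 reads per library. Reads over the ribosomal RNA locus took 6.29% to 27.7% of the counts. All 7 epithelial markers and all 6 fibroblast markers had reads in every tumor. Each tumor came from its own mouse, and the tests judge differences and slopes against the spread between these tumors. Levels are given as RPKM where genes are compared with each other, and as CPM after TMM scaling where tumors are compared.

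Tfdp1 was the most abundant member, with a median of 31.8 RPKM over the 20 tumors (lowest 25.3, highest 39.4). E2f4 followed at 16.2 RPKM (12 to 20 RPKM). With the gene lengths of the count table, the ranges of Tfdp1, E2f4 and, at the other end, E2f7 overlapped with that of no other member. E2f6 had a median of 9.21 RPKM, E2f5 8.20, Rb1 6.24, E2f3 5.64 and E2f1 4.31, and each of these 5 overlapped with its neighbour in the order. E2f6 exceeded E2f5 in 16 of 20 tumors and Rb1 exceeded E2f3 in 13 of 20. The mean log2 ratio of Rb1 to E2f3 was 0.15, with an SD of 0.32 between tumors, and differences in level between members were not tested. The atypical E2f8 (1.61 RPKM), the activator E2f2 (1.27) and the atypical E2f7 (0.588) were the scarcest. E2f1 exceeded E2f8 in 20 of 20 tumors, E2f8 exceeded E2f2 in 18 of 20, and E2f2 exceeded E2f7 in 20 of 20. The repressors that work with pocket proteins, E2f4 and E2f5, thus had higher median RPKM than every activator.

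RPKM rests on the gene length in the table. For 6 members it equals the summed exon length in GENCODE M21, while for Tfdp1, E2f4, E2f6 and E2f3 it is shorter. With the GENCODE lengths, a calculation added after the data were seen, the median of Tfdp1 was 14.8 RPKM and that of E2f4 13.1, with Tfdp1 above E2f4 in 18 of 20 tumors. The ranges of Tfdp1 and E2f4 thus overlapped with these lengths. E2f6 moved from the third place to the seventh, at 3.94 RPKM, below E2f1 in 14 of 20 tumors. The places of E2f8, E2f2 and E2f7 at the bottom held with both lengths.

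**Figure D1:**
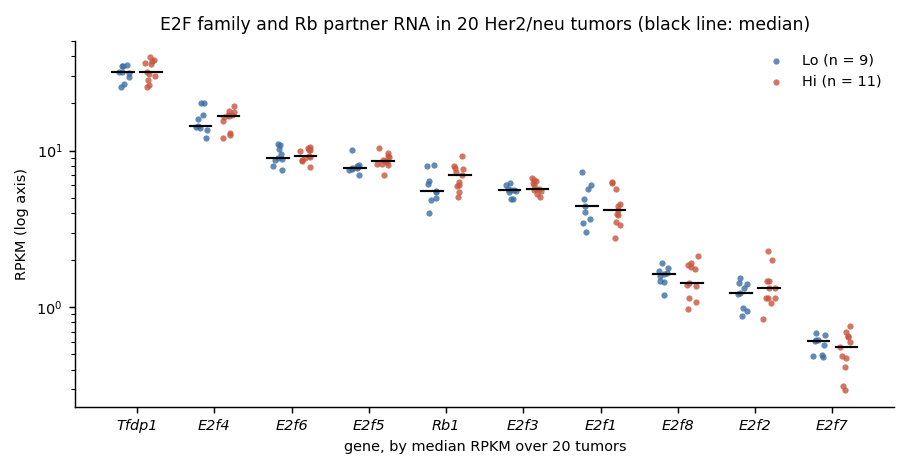
RPKM (log axis) of the 10 members in 9 Lo tumors (blue) and 11 Hi tumors (red), 1 point per tumor, with black lines at the group medians. Genes are ordered by their median over the 20 tumors, from Tfdp1 at 31.8 to E2f7 at 0.588, and the Lo and Hi points of each gene overlap.

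The members differed in how much they varied between tumors. E2f7 had the largest SD of log2 CPM, 0.348 over 20 tumors, followed by E2f1 (0.336), E2f2 (0.297), Rb1 (0.26) and E2f8 (0.259). The median SD of all 18883 genes tested was 0.251. E2f3 had an SD of only 0.0994, and 1.97% of all genes tested had a lower one. E2f6 (0.103), E2f5 (0.118), Tfdp1 (0.136) and E2f4 (0.158) were steady as well. E2f3 ranged from 23.4 to 30.3 CPM (median 27.7), whereas E2f1 ranged from 8.91 CPM in Hi 11 to 21.5 CPM in Lo 8 (median 13.5). E2f7 ranged from 2.71 CPM in Hi 8 to 6.41 CPM in Lo 9 (median 5.34).

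Between the Lo and Hi tumors no member passed the test. E2f7 had 3.93, 5.59 and 6.41 CPM as the lowest, median and highest value in the 9 Lo tumors and 2.71, 5.10 and 6.17 CPM in the 11 Hi tumors, a log2 fold change of -0.23 ± 0.141 (Hi against Lo, SE, edgeR adjusted p = 1). Rb1 had 26.5, 36.3 and 46.8 CPM in Lo and 28.9, 39.7 and 49.9 CPM in Hi, a log2 fold change of 0.13 ± 0.108 (adjusted p = 1). The log2 fold changes of the other 8 members lay between -0.18 (E2f1) and 0.10 (E2f2), all with adjusted p = 1, and the ranges of both groups overlapped for every member. By edgeR's quasi-likelihood test 0 of 18883 genes were called (0% of all genes tested, 1045 at an unadjusted p under 0.05), and DESeq2 called 1, which was not a member.

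How the members moved with the cell cycle was read from 2 scores, each the mean z-score of log2 CPM over a list that holds no member. The S phase list has 22 replication and G1/S genes, and the G2/M list has 23 mitosis genes. The 2 scores were correlated with each other over the 20 tumors (r = 0.69, permutation p = 0.00061). Hi 8, Hi 4 and Hi 11 had the lowest G2/M scores (-2.41, -1.36 and -0.96) and Lo 4 the highest (1.11).

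Of the 10 members 3 rose with the S phase score, where 0.9% of all genes tested were called. E2f8 rose by 0.28 ± 0.0496 log2 units (SE) per unit of score (r = 0.85, permutation p = 1e-05, edgeR adjusted p = 0.00489). Tfdp1 rose by 0.14 ± 0.0298 (r = 0.814, permutation p = 2e-05, adjusted p = 0.0189). E2f1 rose by 0.33 ± 0.0654 (r = 0.759, permutation p = 0.00012, adjusted p = 0.0119). E2f7 had r = 0.678 (permutation p = 0.00083) but an adjusted p of 0.106, and E2f6 had r = 0.551 (permutation p = 0.0114, adjusted p = 0.414). Rb1 had the lowest r, -0.458 (permutation p = 0.0418, adjusted p = 0.434). For E2f2, E2f3, E2f4 and E2f5 r lay between -0.117 and 0.421, with permutation p of 0.065 or more. Spearman's rho was 0.856 for E2f8, 0.863 for Tfdp1 and 0.749 for E2f1 (permutation p of 3e-05, 1e-05 and 0.00019).

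With the G2/M score the atypical E2Fs stood out, against 1.13% of all genes called. E2f7 rose by 0.32 ± 0.0586 log2 units per unit of score (r = 0.823, rho = 0.767, permutation p = 4e-05 and 0.00011, edgeR adjusted p = 0.00333). E2f8 rose by 0.24 ± 0.0455 (r = 0.823, rho = 0.698, permutation p = 3e-05 and 0.00092, adjusted p = 0.00507). Tfdp1 did not pass (r = 0.687, permutation p = 0.00078, adjusted p = 0.109), nor did E2f1 (r = 0.458, permutation p = 0.0412, adjusted p = 0.435). E2f6 had r = 0.485 (permutation p = 0.0319, adjusted p = 0.62), and the other 5 members had r between -0.423 and 0.317. Whether E2f1 differed from E2f7 in its relation to the 2 scores was not tested.

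Most of these calls were lost when a few tumors were left out. Hi 8 had the lowest E2f7 (2.71 CPM), E2f8 (5.38 CPM) and Tfdp1 (43.8 CPM), and Hi 11 came next for E2f7 (2.87 CPM) and E2f8 (5.93 CPM). When the 2 tumors farthest from the median score were left out, Hi 1 and Hi 4 for the S phase score and Hi 8 and Hi 4 for the G2/M score, r with the S phase score was 0.863 for E2f8, 0.795 for Tfdp1 and 0.722 for E2f1, and r with the G2/M score was 0.697 for E2f7 and 0.654 for E2f8. Of these, E2f8 with the S phase score still passed the test (adjusted p = 0.0149). E2f1 (adjusted p = 0.0653) and Tfdp1 (0.0819) with the S phase score and E2f7 (0.347) and E2f8 (0.542) with the G2/M score no longer did. Their slopes were then 0.36 ± 0.0836 for E2f1, 0.15 ± 0.0373 for Tfdp1, 0.31 ± 0.0888 for E2f7 and 0.20 ± 0.0687 for E2f8. Without Hi 4, 8 and 11, a choice made after the data were seen, no member passed for either score. The r values were then 0.74 for E2f8, 0.652 for Tfdp1 and 0.649 for E2f1 with the S phase score and 0.593 for E2f7 and 0.525 for E2f8 with the G2/M score. The slopes were 0.19, 0.11 and 0.31 for the S phase score and 0.20 and 0.13 for the G2/M score. Within the 11 Hi tumors r with the S phase score was 0.898 for E2f8, 0.864 for Tfdp1 and 0.848 for E2f1. Within the 9 Lo tumors it was 0.534, 0.55 and 0.676, and the difference between the groups was not tested. The leukocyte score, the mean z-score of 10 leukocyte markers, had r = -0.494 with the S phase score (permutation p = 0.0276). With it as a covariate, a choice made after the data were seen, the adjusted p of Tfdp1 for the S phase score was 0.0614, while E2f8 (0.0169) and E2f1 (0.0475) still passed.

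**Figure D2:**
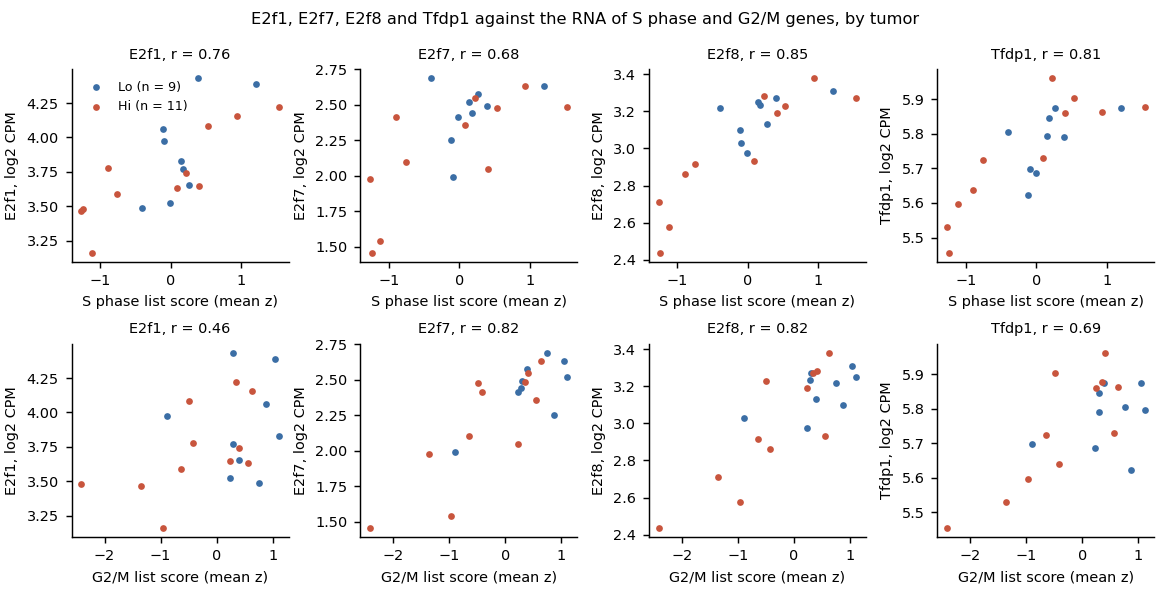
Log2 CPM of E2f1, E2f7, E2f8 and Tfdp1 (y axes) against the S phase list score (top row) and the G2/M list score (bottom row), in mean z units, 1 point per tumor, 9 Lo in blue and 11 Hi in red. E2f8 has r = 0.85 with the S phase score and 0.823 with the G2/M score, E2f1 has 0.759 and 0.458, and the lowest points at the left are Hi tumors.

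Among the members Tfdp1, E2f8 and E2f7 moved together. Over the 45 pairs the median r was 0.298, while over all pairs of tested genes it was -0.004, and 30 pairs had a positive and 15 a negative r (3 negative on the log2(RPKM + 1) scale, which is not TMM scaled). In the fits of all genes on each member, 3 pairs passed in both directions. Of all genes tested, 1.13% were called in the fit on E2f7, 1.19% in that on E2f8 and 0.477% in that on Tfdp1. E2f8 and Tfdp1 had r = 0.891 (permutation p = 1e-05, the smallest that 100000 permutations can give, edgeR adjusted p = 0.00269 and 0.00352). E2f7 and E2f8 had r = 0.856 (permutation p = 1e-05, adjusted p = 0.00455 and 0.00242). E2f7 and Tfdp1 had r = 0.758 (permutation p = 0.00015, adjusted p = 0.0407 and 0.0449). E2f1 and E2f8 had r = 0.694 (permutation p = 0.00067) and passed in the fit on E2f8 (adjusted p = 0.03) but not in the fit on E2f1 (0.0904). In all, 13 pairs had a permutation p under 0.05 before adjustment, among them E2f6 with Tfdp1 (0.647), E2f8 (0.606) and E2f7 (0.589), and E2f1 with E2f4 (0.584). The share of all gene pairs past this threshold was not computed. Leaving out the 2 tumors farthest in the first gene of the pair (Hi 8 and Hi 11 for E2f7 and for E2f8) gave r of 0.842 for E2f8 and Tfdp1, 0.66 for E2f7 and E2f8 and 0.602 for E2f7 and Tfdp1, and none of the 3 passed the adjusted test. Without Hi 4, 8 and 11 none of the 3 passed either (adjusted p of 0.783 to 1), with r of 0.77, 0.549 and 0.473 in the same order, while E2f2 and Rb1 passed in both directions (r = 0.728, adjusted p = 0.0282 and 0.0235, against r = 0.405 in all 20 tumors). In the same 17 tumors r with the leukocyte score was 0.702 for E2f2 and 0.714 for Rb1. Rb1 and E2f5 each had a negative r with 7 of the other 9 members, but on the log2(RPKM + 1) scale only 2 and 1 of these 9 r were negative. The lowest r of Rb1 were -0.45 with E2f3 and -0.445 with E2f1, 0.145 and -0.0562 on the other scale, and neither pair passed the adjusted test.

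**Figure D3:**
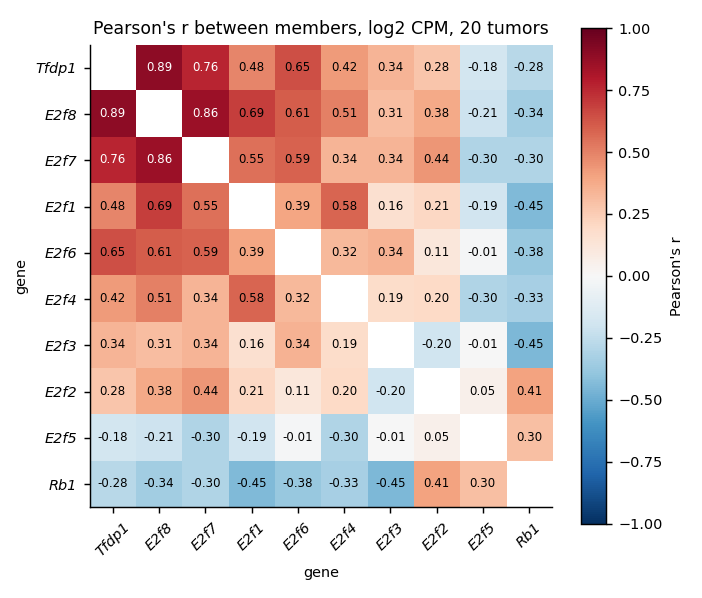
Pearson's r between the members' log2 CPM over 20 tumors, from -1 (blue) to 1 (red), with both axes in the same gene order. The block at the top left holds Tfdp1, E2f8 and E2f7 with r of 0.758 to 0.891, and the rows of E2f5 and Rb1 are mostly blue on this scale, with 7 of 9 r below 0 in each, against 1 and 2 of 9 on the log2(RPKM + 1) scale.

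The promoters of E2f7, E2f8 and Tfdp1 are printed because these genes moved together, and that of E2f2 because it carries the full E2F motif although E2f2 did not pass for either cell cycle score. Each runs from 250 bases before to 50 bases after a RefSeq start site (GRCm38.p6), 5′ to 3′ on the gene's strand. Capitals mark the E2F-type letters TTTCGCGC or TTTGGCGC, or their last 6 letters TCGCGC or TGGCGC, on either strand. They lie at chr10:110745189-110745488 (+) for E2f7, chr7:48881547-48881846 (-) for E2f8, chr8:13338501-13338800 (+) for Tfdp1 and chr4:136172024-136172323 (+) for E2f2.
E2f7: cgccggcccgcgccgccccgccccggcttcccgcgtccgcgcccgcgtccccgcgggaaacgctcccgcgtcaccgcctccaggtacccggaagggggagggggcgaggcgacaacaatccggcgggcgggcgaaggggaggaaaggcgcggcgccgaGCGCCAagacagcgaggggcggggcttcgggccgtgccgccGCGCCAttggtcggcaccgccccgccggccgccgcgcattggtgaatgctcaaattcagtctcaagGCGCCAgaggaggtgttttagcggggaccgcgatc
E2f8: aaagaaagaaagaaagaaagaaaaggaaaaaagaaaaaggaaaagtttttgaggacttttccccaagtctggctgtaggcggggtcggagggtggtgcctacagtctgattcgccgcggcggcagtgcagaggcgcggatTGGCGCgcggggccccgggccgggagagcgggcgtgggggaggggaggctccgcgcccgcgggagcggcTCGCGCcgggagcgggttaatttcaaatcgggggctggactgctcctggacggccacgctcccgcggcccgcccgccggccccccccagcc
Tfdp1: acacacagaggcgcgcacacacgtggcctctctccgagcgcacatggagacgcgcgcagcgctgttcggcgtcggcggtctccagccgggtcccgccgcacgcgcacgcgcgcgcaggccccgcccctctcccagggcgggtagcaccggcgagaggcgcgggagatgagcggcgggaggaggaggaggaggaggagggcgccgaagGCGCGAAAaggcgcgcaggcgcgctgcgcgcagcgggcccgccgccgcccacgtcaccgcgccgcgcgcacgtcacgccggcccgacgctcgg
E2f2: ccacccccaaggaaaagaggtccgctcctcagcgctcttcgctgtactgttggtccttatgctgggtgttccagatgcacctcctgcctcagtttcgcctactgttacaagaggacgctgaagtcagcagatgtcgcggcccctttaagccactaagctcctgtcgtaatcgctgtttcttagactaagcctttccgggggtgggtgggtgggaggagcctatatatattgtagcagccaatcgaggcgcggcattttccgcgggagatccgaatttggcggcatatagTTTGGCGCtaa

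The 8-letter motif is found in 0.813% of all 32851 RefSeq promoters of this length and the 6-letter core, which lies within it, in 18.9%. Tfdp1 holds TTTCGCGC on the opposite strand, with its leftmost letter 43 bases before the start site, and an overlapping window of a second Tfdp1 start site holds this same copy, and E2f2 holds TTTGGCGC at base 40 after it. E2f7 holds the core 3 times, all on the opposite strand, and E2f8 holds it 2 times. E2f8 also has TTTGAA, the letters of the element bound by the MuvB complex, on the opposite strand 20 bases before its start site. TTTGAA is found in 17.9% of promoters, 1 start site each of E2f2 and E2f3 among them. The Tfdp1 start site lies 923 bases before the start of the gene in the count table, and that of E2f2 120 bases before it. A second start site of E2f2 and one of E2f3 hold no E2F-type letters, the other E2f3 start site holds the core once, and E2f6 holds none. The RefSeq start site given for E2f1 lies 466 bases inside the gene of the table and holds none of these letters, so it does not stand for the region upstream of the gene. Promoters of E2f4, E2f5 and Rb1 were not analysed here.

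E2f1 (ENSMUSG00000027490, chr2:154559407-154569892, mm10) was followed by 90 other genes, 75 with a positive and 15 with a negative slope (0.477% of genes tested). Among the genes most like E2f1 over the 20 tumors were Mybl2, a Myb family activator of cell cycle genes (r = 0.885), and the replication factor Cdc45 (0.844). Of the 22 S phase genes 7 rose with E2f1, led by Ccne1, which encodes cyclin E1 (r = 0.833), and Uhrf1, a cofactor of DNA methylation at replication (0.821). Of the 23 G2/M genes 0 were called by edgeR (10 at an unadjusted p under 0.05, against 2700 of all 18882 genes), with Aurka (r = 0.682, adjusted p = 0.0525) and Tpx2 (0.679, adjusted p = 0.0522) closest. Mybl2, Aurka and Tpx2 lie on Chr2 as does E2f1. Of the 75 genes that rose with E2f1, 42 lie on Chr2, which is 56% of them against 8.22% of all genes tested. The count of 90 was 0 without the 2 tumors with E2f1 farthest from its median, Lo 8 and Lo 2, and 1387 genes then had an unadjusted p under 0.05.

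E2f1 RNA followed the RNA dosage of its chromosome. Dosage is the median, over the genes of a chromosome, of log2 CPM relative to each gene's median over tumors, less the same median over all autosomes, and for a member's r it was computed without that member. It is a measure of RNA and not of DNA copies. Chr2 dosage was 0.23 in Lo 2, 0.20 in Lo 8, 0.17 in Lo 11 and 0.12 in Lo 1, and between -0.05 and 0.04 in the other 16 tumors. Lo 8 and Lo 2 had the highest E2f1, 21.5 and 20.9 CPM, and Lo 11 (16.7 CPM) and Lo 1 (15.7 CPM) were also above the median of 13.5 CPM. E2f1 rose by 2.72 ± 0.595 log2 units (SE) per log2 unit of dosage (r = 0.72, permutation p = 0.00028, rho = 0.567, permutation p = 0.0101, edgeR adjusted p = 0.00461). At the same threshold 11.8% of all 18228 autosomal genes were called for their own chromosome. Leaving out the 2 tumors of highest Chr2 dosage gave r = 0.491 (permutation p = 0.0408) and a slope of 2.28 ± 0.995, which did not pass (adjusted p = 0.224). Within Lo r was 0.937 (exact permutation p = 0.000218) and within Hi, where dosage hardly varied, it was 0.434 (permutation p = 0.184).

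E2f1 passed for the S phase score and for Chr2 dosage also when both were in 1 fit, a choice made after the data were seen. With Chr2 dosage as a covariate its slope on the S phase score was 0.25 ± 0.0503 (adjusted p = 0.0203), and with the S phase score as a covariate its slope on Chr2 dosage was 2.0 ± 0.444 (adjusted p = 0.00557). Hi 1 had 18.6 CPM of E2f1 at a Chr2 dosage of -0.02 and the highest S phase score of all tumors, 1.53. With Chr2 dosage as a covariate 5 genes followed E2f1 instead of 90.

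E2f2 (ENSMUSG00000018983, chr4:136172394-136196057) was the other member that followed the dosage of its chromosome. The paper that reported these tumors found loss of a Chr4 copy, in whole or in part, in all tumors it karyotyped. It also found Chr4 expression skewed toward the FVB alleles. Dosage here is relative to the other tumors, so a high or low value does not show a gain or loss of copies. Its lowest, median and highest values were 5.12, 6.38 and 7.09 CPM in Lo and 4.17, 6.10 and 10.9 CPM in Hi. Hi 5 had the highest Chr4 dosage, 0.37, and the highest E2f2, and Hi 2 followed with a dosage of 0.17 and 8.74 CPM. Lo 2 and Lo 3 had the lowest dosage, -0.21 and -0.19, with 5.13 and 5.22 CPM, but the lowest E2f2 was in Hi 8 at a dosage of -0.01. E2f2 rose by 1.73 ± 0.321 log2 units per log2 unit of Chr4 dosage (r = 0.783, permutation p = 9e-05, rho = 0.719, permutation p = 0.00047, edgeR adjusted p = 0.00141). Within Lo r was 0.815 (exact permutation p = 0.0137) and within Hi it was 0.808 (permutation p = 0.00435). Without Hi 5 and Lo 2, the 2 farthest in dosage, r was 0.612 (permutation p = 0.0064, adjusted p = 0.108).

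In the fit on E2f2 380 genes were called (2.01%), 245 of them with a positive slope, and 154 of those lie on Chr4, 62.9% against 6.16% of all genes tested. The most like E2f2 were the lysophospholipid acyltransferase Lpcat1 on Chr13 (r = 0.902), and Txlna (0.869) and the receptor kinase Epha2 (0.868) on Chr4. None of the 22 S phase and 23 G2/M genes was called by edgeR with E2f2, and 0 and 2 of them had an unadjusted p under 0.05, against 2559 of all 18882 genes. With Chr4 dosage as a covariate 72 genes followed E2f2, 11 with a positive slope. E2f2 and the G2/M score had r = 0.317 (permutation p = 0.171, and r = -0.148 without Hi 4, 8 and 11), and with Chr4 dosage as a covariate the slope was 0.15 ± 0.0448 (adjusted p = 0.126). On the S phase score the slope of E2f2 was 0.025 ± 0.0916 (edgeR adjusted p = 0.948). With Chr4 dosage as a covariate it was 0.14 ± 0.0565 (edgeR adjusted p = 0.354). When Hi 5 and Hi 8, the 2 tumors farthest in E2f2, were left out, 0 genes were called in the fit on E2f2 and 1420 had an unadjusted p under 0.05.

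For the other 8 members the dosage of the own chromosome did not pass the test. E2f4 on Chr8 came closest (r = 0.45, permutation p = 0.0461, adjusted p = 0.165). Tfdp1, which is also on Chr8, had r = -0.0415, and the others had r between -0.291 and 0.277.

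**Figure D4:**
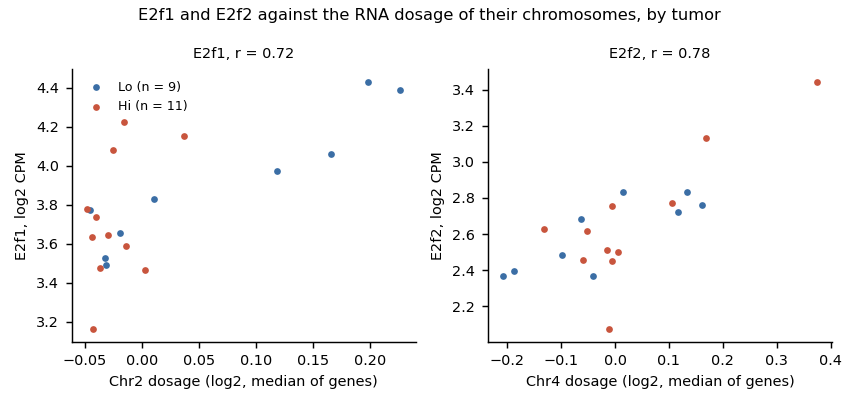
Log2 CPM of E2f1 against Chr2 dosage (left, r = 0.72) and of E2f2 against Chr4 dosage (right, r = 0.783), dosage in log2 units, 1 point per tumor, 9 Lo in blue and 11 Hi in red. The 4 Lo tumors of raised Chr2 dosage lie apart at the right of the first panel, and Hi 5 at the right end of the second.

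E2f3 (ENSMUSG00000016477, chr13:29906575-29985668), the third activator, was followed by no gene in edgeR (0% of genes tested, 1622 at an unadjusted p under 0.05), and E2f5 (ENSMUSG00000027552, chr3:14578641-14606309) by none either (0%, 1094 at an unadjusted p under 0.05). Both varied little, E2f3 with a CV of 6.8% and E2f5 with 8.05% of CPM. E2f5 ranged from 12.6 CPM in Hi 6 to 17.4 CPM in Hi 11, with a median of 15.0 CPM.

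E2f4 (ENSMUSG00000014859, chr8:105297663-105305369) ranged from 24.3 CPM in Hi 11 to 37.0 CPM in Lo 8 (median 31.4). In its fit 201 genes were called (1.06%), 98 with a positive and 103 with a negative slope, and 202 were called without the 2 tumors farthest in E2f4. The most like it were Cherp (r = 0.882), which is on Chr8 as well, the negative elongation factor subunit Nelfa (0.856) and the nuclear pore protein Pom121 (0.838). Of the S phase list 1 gene, the thymidine kinase Tk1 (r = 0.736), rose with E2f4, and of the G2/M list none (0 at an unadjusted p under 0.05, against 3369 of all 18882 genes).

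E2f6 (ENSMUSG00000057469, chr12:16810965-16826743) ranged from 19.1 CPM in Hi 8 to 26.7 CPM in Lo 3 (median 22.6). In its fit 31 genes were called (0.164%), 29 with a negative and 2 with a positive slope, the latter Snrnp48, a protein of the minor spliceosome (r = 0.816), and B630019K06Rik (r = 0.579, rho = 0.317). Only 1 gene was called without Lo 3 and Hi 8, the 2 tumors farthest in E2f6, and likewise 1 without Hi 4, 8 and 11 and 1 with the G2/M score as a covariate. Of its 8 listed partners in the noncanonical polycomb complex, such as Pcgf6, L3mbtl2, Mga and Max, 0 were called by edgeR with E2f6 (0 at an unadjusted p under 0.05), with a median r of -0.0773 and a median over all genes of 0.00574. No gene of the S phase and G2/M lists was called with E2f6, while 13 of 22 and 12 of 23 had an unadjusted p under 0.05, against 1995 of all 18882 genes.

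E2f7 (ENSMUSG00000020185, chr10:110745439-110787384) was followed by 214 genes (1.13%), 127 with a positive slope. The most like E2f7 were mitosis genes, namely the proliferation antigen Mki67 (r = 0.916), the kinesin Kif23 (0.906) and the topoisomerase Top2a (0.906). Of the 23 G2/M genes 16 rose with E2f7, and of the 22 S phase genes 3, Tyms (r = 0.837), Uhrf1 (0.777) and Prim1 (0.767). E2f8 (ENSMUSG00000046179, chr7:48866429-48881596) was followed by 225 genes (1.19%), 162 with a positive slope. The most like E2f8 were the replication initiation genes Ticrr (r = 0.935) and Topbp1 (0.91). Of the G2/M genes 18 of 23 and of the S phase genes 11 of 22 rose with E2f8, among them Uhrf1 (r = 0.858) and the thymidylate synthase Tyms (0.864). The median r of the G2/M list was 0.737 with E2f7 and 0.74 with E2f8, while the median over all genes was 0.003 and -0.00163. Most of these calls were lost when a few tumors were left out. Without Hi 8 and Hi 11, the 2 tumors farthest in either member, 0 genes followed E2f7 (1029 at an unadjusted p under 0.05) and 1 followed E2f8, and without Hi 4, 8 and 11 none followed either by edgeR (1179 and 660 at an unadjusted p under 0.05).

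Tfdp1 (ENSMUSG00000038482, chr8:13339674-13377702) ranged from 43.8 CPM in Hi 8 to 62.3 CPM in Hi 9 (median 55.4), with the 9 Lo tumors between 49.2 and 58.6 CPM. It was followed by 90 genes (0.477%), 55 with a positive slope. The most like it was Prim1, the catalytic subunit of the DNA primase (r = 0.96), followed by the DNA repair phosphodiesterase Tdp1 (0.93) and by Fbxo5 (0.899). For Prim1 r was 0.971 within Lo, 0.96 within Hi and 0.955 without the 2 tumors farthest in Tfdp1. Of the S phase list 6 of 22 genes rose with Tfdp1 and of the G2/M list 4 of 23, Mki67 (r = 0.822), Kif23 (0.808), Top2a (0.792) and Ttk (0.779). Without the 2 farthest tumors, Hi 8 and Hi 4, 3 genes were called, and without Hi 4, 8 and 11, 1 gene.

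Rb1 (ENSMUSG00000022105, chr14:73183673-73325822) ranged from 26.5 CPM in Lo 2 to 49.9 CPM in Hi 2 (median 38.5) and was followed by 493 genes (2.61%), 395 of them with a positive slope. Without Lo 2 and Hi 1, the 2 tumors farthest in Rb1, 103 genes were called, and without Hi 4, 8 and 11 there were 834. The most like Rb1 were the protease inhibitor Spink5 (r = 0.946), the ligand Wnt5b (0.927) and Cp, which encodes the copper protein ceruloplasmin (0.927), and each r was 0.899 or more without the 2 farthest tumors. No gene of the S phase and G2/M lists was called with Rb1 by edgeR, and 8 and 7 of them had an unadjusted p under 0.05, against 2856 of all 18882 genes. The median r of these lists with Rb1 was -0.414 and -0.385, and the median over all genes was -0.0125. On the log2(RPKM + 1) scale Rb1 had r = 0.0439 with the S phase score.

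Rb1 rose with the leukocyte score, a comparison added after the data were seen, and 3 of the 9 leukocyte markers tested passed with it. The slope was 0.35 ± 0.0726 log2 units per unit of the leukocyte score (r = 0.747, permutation p = 0.00021, rho = 0.755, permutation p = 0.00026, edgeR adjusted p = 0.00882), where 3.51% of all genes tested were called. Without the 2 farthest tumors r was 0.774 (adjusted p = 0.0204). The markers called in the fit on Rb1 were the T cell genes Cd3e (r = 0.795), Cd8a (0.708) and Cd3g (0.662), whose median counts were only 13.5, 12 and 12 reads per tumor. The abundant Ptprc had r = 0.629 (adjusted p = 0.0534), while the myeloid genes Csf1r (0.399), Lyz2 (0.383), Itgam (-0.032) and Cd68 (-0.393) did not pass. The summed level of the 10 markers ran from 196 to 336 CPM in Lo and from 212 to 319 CPM in Hi, and their part in the level of Rb1 was not tested. Hi 5 had the highest leukocyte score (0.93) and the highest Chr4 dosage (0.37), with 46.7 CPM of Rb1. Lo 2 had the lowest Chr4 dosage (-0.21), a leukocyte score of -0.69 and the lowest Rb1, 26.5 CPM. Hi 8 and Hi 11 had 47.0 and 46.5 CPM of Rb1 at Chr4 dosages of -0.01 and -0.02. Relations of Rb1 and of the leukocyte score to Chr4 dosage were not tested. Scores of the other cell type lists had r with Rb1 between -0.124 (adipocytes) and 0.231 (epithelial cells). E2f6 had r = -0.615 with the leukocyte score (permutation p = 0.00343, adjusted p = 0.176) and E2f3 had -0.541 (permutation p = 0.0141, adjusted p = 0.286), so neither passed, and on the log2(RPKM + 1) scale r was 0.074 and 0.0476. E2f2 had r = 0.427 (permutation p = 0.0583, adjusted p = 0.209) and passed without Hi 4, 8 and 11 (r = 0.702, adjusted p = 0.0337). Its r was 0.836 within Lo (exact permutation p = 0.00589) and 0.266 within Hi. E2f2 lies on Chr4, and its r with Chr4 dosage was 0.783, or 0.873 without Hi 4, 8 and 11. A fit of E2f2 on the leukocyte score with Chr4 dosage as a covariate was not run.

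**Figure D5:**
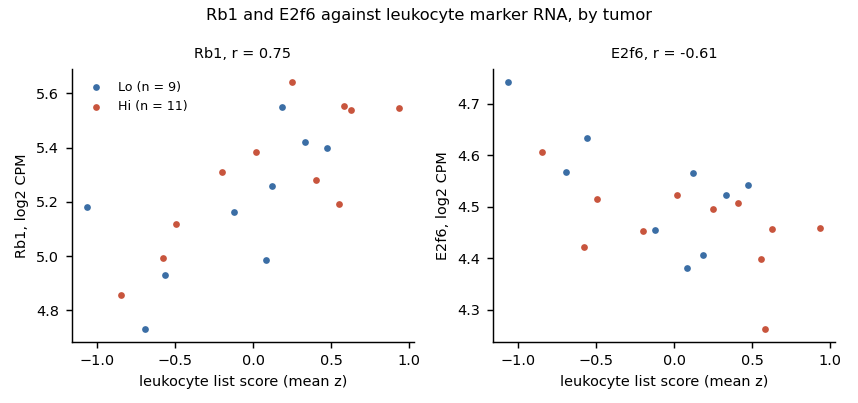
Log2 CPM of Rb1 (left) and E2f6 (right) against the leukocyte list score in mean z units, 1 point per tumor, 9 Lo in blue and 11 Hi in red. Rb1 has r = 0.747 and E2f6 r = -0.615.

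Exons of some members overlap those of other genes on the opposite strand, and the strand setting of the counts is not given in the sources used here, so reads of the shared bases cannot be assigned. In GENCODE M21 exons of Rb1 share 488 bases with Rcbtb2 and 408 with Lpar6, a receptor gene within Rb1. Over the tumors r with Rb1 was 0.224 for Rcbtb2 and 0.529 for Lpar6. Exons of E2f8 share 610 bases with the antisense gene Gm2788, which had a median of 1.36 CPM and r = 0.578 with E2f8. E2f7 shares 86 bases with 1700020G17Rik and E2f5 shares 26 with 1810022K09Rik.

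Among the other genes of the pathway few passed the test. Without the 2 tumors farthest in the member, 0 genes rose with E2f1, E2f2, E2f7 or E2f8 by edgeR. The rises with these members that are named below then no longer passed. With Tfdp1 2 genes still rose, and with E2f4 119. Without the 2 tumors farthest in the score, calls fell from 214 to 55 for the G2/M score and from 170 to 75 for the S phase score. Whether the genes named below for these scores were among the remaining calls is not reported here. Of the other pocket and DP genes, Rbl1, which encodes p107, rose with E2f8 (r = 0.791, edgeR adjusted p = 0.0103) and with E2f7 (r = 0.751, adjusted p = 0.0253), while Rbl2 and Tfdp2 passed with neither. With the G2/M score Rbl1 had r = 0.623 (adjusted p = 0.163) and Tfdp2 0.281. Of the 7 genes of G1 cyclins and their kinases 0 were called by edgeR with the G2/M score, the S phase score or any member (at most 4 at an unadjusted p under 0.05, with E2f1 and E2f4), and the largest r with the G2/M score were those of Cdk6 (0.474, adjusted p = 0.405) and Cdk4 (0.451, adjusted p = 0.569). Of the 7 CDK inhibitors Cdkn2c, which encodes p18, rose with the G2/M score (r = 0.765, adjusted p = 0.016), and Cdkn2d, which encodes p19, did not pass (r = 0.577, adjusted p = 0.261). Cdkn2d rose with E2f8 (r = 0.722, adjusted p = 0.0478) and E2f4 (r = 0.718, adjusted p = 0.0451).

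Of the 7 genes of the MuvB, Myb and FoxM1 list, Foxm1, the forkhead activator of mitosis genes, rose with the G2/M score (r = 0.835, adjusted p = 0.000787). It also rose with E2f8 (r = 0.88), E2f7 (0.821) and Tfdp1 (0.754). Mybl2 rose with E2f1 (0.885) and E2f8 (0.715) and with the S phase score (0.772, adjusted p = 0.00745), and had r = 0.564 with the G2/M score (adjusted p = 0.186), as did Lin54 (adjusted p = 0.344). Rbbp4, on Chr4, rose with E2f2 (r = 0.692, adjusted p = 0.0334). Of the 8 genes of the E2F6 partner complex 0 were called by edgeR with either score or any member (at most 2 at an unadjusted p under 0.05, with E2f5), and Cbx3 (0.43) and Pcgf6 (-0.326) had the largest r with the G2/M score in size. None of the genes of these lists, or of the S phase and G2/M lists, was called between Lo and Hi. An unadjusted p under 0.05 was found by edgeR for 10 of 23 G2/M genes and 3 of 7 CDK inhibitors. The other pathway lists had 0 such genes, and among all genes tested there were 1045 of 18883. The median log2 fold change (Hi against Lo) of the G2/M list was -0.25.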

How the data were processed

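RNA of 20 tumors (miRNeasy extraction, TruSeq mRNA libraries) was sequenced in paired ends, and the authors trimmed the reads. Per the submitters' processing notes, TopHat2 2.0.12 and featureCounts 1.4.4 were used with mm10 (hg19 is named as well). Besides gene position and length, the deposited values are raw read counts per gene, 1 column per tumor, and the annotation release and strand setting are not given in the sources used here. Alignment was to a C57BL/6 reference, and reads of strain variants were not examined.

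From the counts, RPKM was computed with the listed gene length and the total count, and CPM with TMM factors in edgeR 4.0.16 (R 4.3.3), log2 CPM taking 2 as its prior count. The 18883 genes passing filterByExpr were tested by edgeR's quasi-likelihood test, with Benjamini-Hochberg adjustment over all of them at 0.05. Lo was compared with Hi, and slopes were fitted on list scores, on the dosage of the own chromosome (over genes whose CPM averaged 5 or more) and on each member's log2 CPM. Permutation p-values of r and rho are two-sided, with 100000 permutations or, within the 9 Lo tumors, all orders. The scripts were tested on simulated data. Alternatives included DESeq2 1.42.0, other scalings, no filter, covariates and left-out tumors, of which the leukocyte score, the dosage covariates and leaving out Hi 4, 8 and 11 were chosen after the data were seen. Motifs were searched on both strands of RefSeq promoters (GRCm38.p6), where 7 members had an entry.

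Members and lists were chosen with earlier results of these data known. Up to 3 genes most like each member were named among those past the test whose log2 CPM averaged 1 or more, and from each pathway list the 2 genes with the largest r in size with the G2/M score (with E2f1 for the S phase and G2/M lists). Other genes of the lists were named where a member's fit called them, and these were chosen after their values were seen. Some genes that the rule names are not reported here. Each mouse gave 1 tumor. Intervals of single counts are not given, and precision is limited by the spread between tumors.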

Additional observations from a re-analysis of the deposited data

How the results depend on the processing

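Size factors of DESeq2 in place of TMM moved no count of calls by over 1.5 times for the comparison of Lo with Hi and the 3 scores. Leaving out the 2 tumors that lay farthest from the median of the measure gave 75 calls for the S phase score (from 170), 55 for the G2/M score (from 214), 189 for the leukocyte score (from 662) and 434 for own chromosome dosage (from 2156). In the fits on members they were then 0 for E2f1, E2f2 and E2f7, 1 for E2f6 and E2f8, 3 for Tfdp1 and 103 for Rb1. Without Hi 4, 8 and 11 they were 27 for the S phase score, 25 for the G2/M score, 12 for E2f1, 1 for E2f6 and Tfdp1, 0 for E2f7 and E2f8 and 834 for Rb1. With Lo or Hi as a covariate they were 27 for E2f1, 132 for E2f4, 20 for E2f6, 133 for E2f7 and 59 for Tfdp1. With the G2/M score as a covariate they were 571 for E2f2, 316 for E2f4, 674 for E2f7, 1 for E2f6 and Tfdp1 and 2 for E2f8. With Chr2 dosage as a covariate 93 genes followed the S phase score and 5 E2f1, and with Chr4 dosage 72 followed E2f2. DESeq2 called 390 genes for the S phase score and 349 for the G2/M score, and with it E2f7 passed for the S phase score (adjusted p = 0.0207) and Tfdp1 for the G2/M score (adjusted p = 0.0461). DESeq2 and the fit without a filter called 1 gene each in the comparison of Lo with Hi. Without the ribosomal RNA locus in the total, median RPKM was higher, 38.5 for Tfdp1, and the order of the members was as before. For these counts the cause was not tested, beyond the smaller number of tumors where some were left out.

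Among the members' values that had passed a test or had an unadjusted p under 0.05, and among the fold changes, these changed sign. The log2 fold change of Hi against Lo became 0.0083 for E2f3, 0.019 for E2f7, 0.017 for E2f8 and 0.064 for Tfdp1 with the G2/M score as a covariate, and 0.0006 for E2f3, 0.0056 for E2f4 and 0.053 for Tfdp1 without Hi 4, 8 and 11. In the 18 tumors without the block it was 0.0 for E2f3. On the log2(RPKM + 1) scale, which is not TMM scaled, r became 0.0439 for Rb1 with the S phase score, 0.0476 for E2f3 and 0.074 for E2f6 with the leukocyte score, and 0.145 for E2f3 and Rb1. Within Lo it became -0.0103 for E2f6 with the G2/M score and -0.127 for E2f1 and E2f7. Over all 45 pairs of members 12 changed sign on the log2(RPKM + 1) scale, 6 of them pairs of E2f5 and 5 of Rb1, and 12 without Hi 4, 8 and 11. Of the members not past either threshold, 2 of 4 changed sign under some alternative for the S phase score, 4 of 5 for the G2/M score, 5 of 7 for the leukocyte score and 7 of 7 for own chromosome dosage. The shorter 6-letter motif was found in 6 of the 10 member promoters, and the 8-letter motif in 3, of which 2 are overlapping Tfdp1 windows with the same copy.

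The 9 Lo and 9 Hi tumors that share a number in their names were not treated as pairs in the main comparison. No label says what these numbers stand for, and a modest effect of a shared number could go unseen in the check that follows. The correlation of their deviations from the group means ran from -0.418 to 0.208 and was over 0.1 in 3 of 9 pairs, and 1 of the 9 Lo tumors correlated best with its own number. With the replicate block edgeR called 0 genes (872 had an unadjusted p below the threshold of 0.05), and the log2 fold change became -0.0017 for E2f2 and 0.0006 for E2f3.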
